A study of Mus musculus with 50 samples.

Results

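The H3K27me1 and H3K27me2 ChIP-seq lists of 2 mouse embryonic stem cell (ESC) lines without PRC2 activity were compared. One line, *Ezh1/2* dKO, lacks *Ezh1* and *Ezh2*. The other, *Ezh2* Y726D, lacks *Ezh1* and carries a tyrosine-to-aspartic-acid change in EZH2 that was made to block its activity while the complex still assembles. Both lines were edited by CRISPR/Cas9 in E14 cells, picked as clones and grown in medium with 2i, LIF and serum, so a line also differs from another as a clone. The antibodies came from Active Motif (H3K27me1) and Cell Signaling (H3K27me2). Each line and mark had 1 library here, so replicate error could not be estimated, no test between lines was made, and every difference below is a difference between libraries. All regions on chromosomes listed in both lines for a mark were taken, since some lists lack whole chromosomes (12 of 21 for H3K27me1 in *Ezh2* Y726D) and whether these were left out or had no region called could not be settled. For H3K27me1 these were 9 chromosomes (1, 2, 5, 7, 9, 11, 14, 17 and X), with 150339 regions in *Ezh1/2* dKO and 163771 in *Ezh2* Y726D. For H3K27me2 they were 20 chromosomes, all autosomes and X, with 478403 and 475687 regions. Together these are 1268200 of the 2351290 regions listed for both marks in 4 lines. The *Ezh1/2* dKO H3K27me1 list held 265774 regions before this choice, on 16 chromosomes. WT (unedited E14) and *Ezh2* KO lists of the same marks serve for comparison.

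PRC2 is the enzyme that adds 1, 2 or 3 methyl groups to lysine 27 of histone H3, with EZH1 or EZH2 as its catalytic subunit. In ESCs H3K27me1 is known from the bodies of transcribed genes, H3K27me2 from broad stretches between and within silent genes, and H3K27me3 from Polycomb (PcG) promoters, where SUZ12, a core subunit, marks bound PRC2. The comparison asks what is listed for the H3K27me1 and H3K27me2 antibodies in cells made to lack this activity. It also asks how the lists differ between a line without and a line with EZH2 protein. With 1 library per line and mark, a difference cannot be tied to EZH2 protein itself.

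The RNA-seq libraries, 2 per line, bore out the labels for *Ezh1* and *Ezh2*. *Ezh1* had 226.8 and 377.4 normalized counts in WT, 14.01 and 20.4 in *Ezh1/2* dKO and 24.1 and 15.7 in *Ezh2* Y726D. *Ezh2* had 597.6 and 545.9 in WT, 0.82 and 1.78 in *Ezh1/2* dKO and 421.7 and 613.1 in *Ezh2* Y726D, where the edited transcript is kept. All 5 ESC markers were detected, with summed counts of 6633 to 6936 in the 2 mutant lines and 7258 to 7987 in WT. The 4 primitive endoderm markers summed to 16.8 to 34.6 in the mutant lines, above the 2.67 and 10.6 of WT, and *Sox17* and *Foxa2* were at 0 in *Ezh2* Y726D. The 3 of 4 fibroblast markers in the table summed to 86.1 to 115.4, most of it from *Thy1* (76.1 to 101.2), compared with 12.01 and 4.81 in WT. The 4 neural markers summed to 537.6 to 1079.7 in the mutant lines and 536.3 to 1326 in WT. In bulk samples fewer cells of a type and less RNA per cell cannot be told apart.

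The regions of both lines were numerous, short and weak. The median length of a region was 745 bp (*Ezh1/2* dKO) and 775 bp (*Ezh2* Y726D) for H3K27me1, and 920 and 908 bp for H3K27me2. The median fold enrichment over background was 1.72 to 1.77 in all 4 lists. MACS2 also gives each region a -log10 p against the same background, and its median was 1.34 to 1.36. These medians were close to those of the lines that keep *Ezh1*, at a fold of 1.75 to 1.84 and a -log10 p of 1.27 to 1.51 in the WT and *Ezh2* KO lists. Of the H3K27me1 regions, 0.0752% in *Ezh1/2* dKO and 0.0305% in *Ezh2* Y726D had a -log10 p of at least 3, compared with 3.35% in WT and 0.0585% in *Ezh2* KO. For H3K27me2 the shares were 0.0690% and 0.0645%, with 0.0433% in WT and 3.11% in *Ezh2* KO. A -log10 p of 5 was reached by 30 and 14 H3K27me1 regions and by 68 and 62 H3K27me2 regions. These few strong regions were examined first.

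Tandem repeats were searched for units of 2 to 6 bases. Those of a 5-base unit were frequent among the strong regions. A perfect run of at least 30 bases lay in 15 of the 30 strong H3K27me1 regions of *Ezh1/2* dKO (50%, Wilson 95% interval 33.2 to 66.8) and in 3 of 14 of *Ezh2* Y726D (21.4%, 7.57 to 47.6). For H3K27me2 it lay in 36 of 68 (52.9%, 41.2 to 64.3) and 37 of 62 (59.7%, 47.3 to 71.0). Among regions with a -log10 p of 1 to 2 the share was 0.909% and 0.882% for H3K27me1 and 1.41% and 1.44% for H3K27me2, although these were not shorter (medians of 755 to 929 bp, compared with 422 to 654 bp for the strong ones). Runs of a 4-base unit were also more frequent in strong H3K27me2 regions (13.2% and 16.1%) than at 1 to 2 (4.16% and 4.32%). Runs of a 2-base unit were not (13.2% and 11.3%, compared with 13.3% and 13.7%). Intervals here and below cover counting error only. The most frequent 5-base unit was AAGAG, read on either strand and from any base of the unit. It made up 9 of the 15 and 2 of the 3 runs for H3K27me1 and 19 of the 36 and 15 of the 37 for H3K27me2, but 4609 of the 41289 such runs of the genome, where AAAAC was the most frequent unit (9779). Most runs lay outside strong regions: 0.177% and 0.0540% of the runs on the H3K27me1 chromosomes and 0.352% and 0.301% on the H3K27me2 chromosomes were in a region of -log10 p of at least 3.

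The region with the highest -log10 p in 3 of the 4 lists lay in an intron of *Frmd7* (chrX:48281802-48282221 for H3K27me2 in *Ezh1/2* dKO) and held no perfect run of 30 bases. Its -log10 p was 56.2 and 37.2 for H3K27me2 and 28.4 and 8.51 for H3K27me1, in *Ezh1/2* dKO and *Ezh2* Y726D respectively, with fold enrichments of 19.3, 13.9, 9.58 and 4.54. The first-ranked H3K27me1 region of *Ezh2* Y726D, 69048 bp from the *BC035947* start site (chr1:78577248-78577923), had a -log10 p of 12.3 and a run of 45 bases. The fourth-ranked one there lay in an intron of *Mid1* on chromosome X (chrX:166437047-166437956, -log10 p 9.30). The fifth-ranked H3K27me2 region of *Ezh2* Y726D, 39308 bp from the *Samd9l* start site (chr6:3388471-3389287), had a -log10 p of 21.6 and a run of 88 bases.

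**Figure D1:**
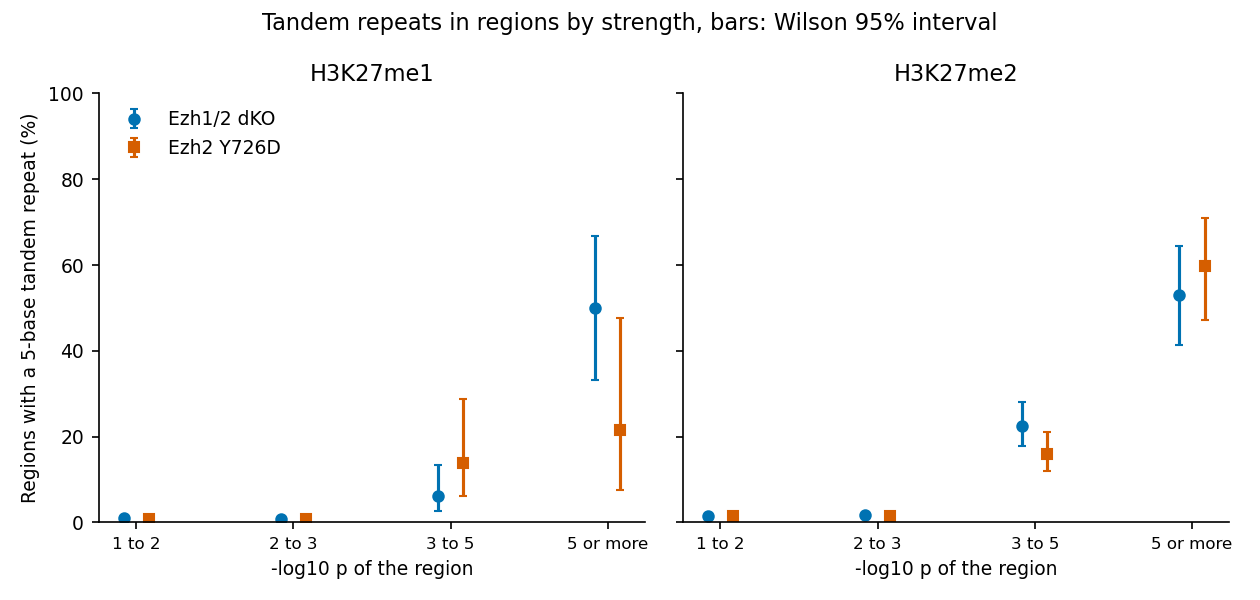
Share of regions (%, vertical axis) that hold a perfect tandem repeat of a 5-base unit over at least 30 bases, by -log10 p of the region (horizontal axis), for H3K27me1 (left) and H3K27me2 (right). Blue circles are *Ezh1/2* dKO and orange squares *Ezh2* Y726D, 1 library each, with Wilson 95% intervals as bars. The share is 0.701% to 1.70% below a -log10 p of 3 and 21.4% to 59.7% at 5 or more.

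The strong regions were largely the same places. Of the strong regions on the 9 chromosomes listed throughout, 25 of 30 (H3K27me1) and 29 of 41 (H3K27me2) of *Ezh1/2* dKO, and 14 of 14 and 27 of 35 of *Ezh2* Y726D, overlapped a region in all 4 lists. They were not confined to the mutants: 23 of 30, 26 of 41, 14 of 14 and 24 of 35, in the same order, overlapped a WT H3K27me1 region, and 5, 8, 5 and 7 a WT H3K27me2 region. Among all H3K27me1 regions, 26.8% (*Ezh1/2* dKO) and 29.3% (*Ezh2* Y726D) overlapped a WT H3K27me1 region. For H3K27me2 regions in WT H3K27me2, on 20 chromosomes, it was 37.2% and 37.9%, above the 8 of 41 and 7 of 35. Such shares of all regions were not computed between marks or for all 4 lists together. Repeat runs were also in strong regions where the enzyme was present. At a -log10 p of at least 5, a 5-base run lay in 8.63% of the 197 WT H3K27me1 regions and 13.2% of the 2164 *Ezh2* KO H3K27me2 regions, below the 21.4% to 59.7% of the mutant lists, although the WT interval (5.46 to 13.4) overlaps that of *Ezh2* Y726D H3K27me1. These WT and *Ezh2* KO regions were also longer, with medians of 2913 and 10387.5 bp, compared with 422 to 654 bp in the mutant lists. The other lists of these lines had 1 of 2 (*Ezh2* KO H3K27me1) and 0 of 4 (WT H3K27me2). By runs, 1.24% lay in a WT H3K27me1 region of -log10 p of at least 3 and 2.50% in such an *Ezh2* KO H3K27me2 region, above the mutants, but 0.0147% for *Ezh2* KO H3K27me1 and 0.00242% for WT H3K27me2, below them. These shares also depend on how many such regions a list holds. In the same order there were 2942, 6052, 89 and 117, compared with 50 to 330 in the mutant lists.

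*Ezh1* itself was the gene with the most strong regions in each of the 4 lists. *Ezh1* lies on the minus strand of chromosome 11 (chr11:101052429-101087777, ENSMUSG00000006920.8), and per the study's methods the knockout was made with paired guides that cut out the gene. It nonetheless overlapped 9 strong H3K27me1 regions in *Ezh1/2* dKO and 5 in *Ezh2* Y726D, and 8 and 9 strong H3K27me2 regions. *Mid1* was the only other gene with more than 1, with 2 for H3K27me1 in *Ezh2* Y726D. The *Ezh1* regions followed its coding exons. Regions covered 98.0% and 94.3% of the coding-exon bases for H3K27me1 and 97.6% and 96.2% for H3K27me2, compared with 24.3% and 25.97%, and 28.4% and 24.5%, of the intron bases. Of the 20 coding exons (median length 112 bp, 2250 coding bases in all), 17 or 18 were overlapped, while exon 13, of 41 bp, and exon 1, with 5 coding bases, were not in any of the 4 lists.

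Coding exon 11 is printed because the highest -log10 p in the gene fell on the region that holds exons 10 and 11. The sequence is the plus strand of mm9, so the gene reads in the other direction, with the 197 exon bases in capitals and 40 intron bases on each side.
chr11:101064529-101064805, *Ezh1* coding exon 11: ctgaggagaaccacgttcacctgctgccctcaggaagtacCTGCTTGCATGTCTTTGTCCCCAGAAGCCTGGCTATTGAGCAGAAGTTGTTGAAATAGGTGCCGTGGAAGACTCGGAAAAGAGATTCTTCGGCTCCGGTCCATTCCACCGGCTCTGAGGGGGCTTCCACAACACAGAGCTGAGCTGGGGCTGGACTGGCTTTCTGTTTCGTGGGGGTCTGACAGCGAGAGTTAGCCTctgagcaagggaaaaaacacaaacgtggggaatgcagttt

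This region had a -log10 p of 20.9 and 10.5 for H3K27me1 and 22.2 and 23.7 for H3K27me2, in *Ezh1/2* dKO and *Ezh2* Y726D respectively. Regions on *Ezh1* coding exons were not confined to these marks or to the mutants, though other lists did not all show the same pattern. H3K27ac listed 5 peaks in *Ezh1* in either line, with -log10 p up to 18.5 and 23.2. They overlapped 6 and 5 of the 20 coding exons and covered 40.3% and 38.2% of the coding-exon bases. ATAC-seq, which measures open chromatin, listed regions with -log10 p up to 1199.96 and 2189.6 that overlapped 8 of the 20 coding exons. WT H3K27me1 covered 99.3% of the coding-exon bases with 8 strong regions, and *Ezh2* KO H3K27me2 covered 96.2% with 6. They covered 48.0% and 23.7% of the intron bases, so the WT regions were less confined to exons. The *Ezh2* KO H3K27me1 list held no region in the gene, the WT H3K27me2 list 3 with a -log10 p of at most 1.70, and the SUZ12 and H3K27me3 lists of WT and both lines none. What gave exon-shaped regions in a deleted gene was not tested. *Ezh2* (chr6:47480273-47545340) had no such regions: H3K27me2 covered 4.08% of it in *Ezh1/2* dKO and 8.001% in *Ezh2* Y726D, and chromosome 6 is not listed for H3K27me1 in the latter.

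The lists of the 2 lines overlapped by more than the covered share of the genome. For H3K27me1, 48.7% (48.5 to 49.0) of the *Ezh1/2* dKO regions shared at least 1 bp with an *Ezh2* Y726D region, and 44.6% (44.3 to 44.8) the other way. By bases, 32.1% and 28.1% were shared, where the other list covered 12.97% and 11.4% of the assembled bases. For H3K27me2, 62.7% (62.6 to 62.9) and 63.5% (63.4 to 63.6) of regions overlapped, and 46.2% and 47.0% of bases, where the other list covered 24.6% and 25.002%. Strong regions overlapped more often. With a -log10 p of at least 5, each of the 68 and 62 H3K27me2 regions overlapped a region of the other line, as did the 14 H3K27me1 regions of *Ezh2* Y726D and 26 of the 30 of *Ezh1/2* dKO. It was 46.9% and 43.2% for H3K27me1 regions with a -log10 p of 1 to 1.5. When an overlap had to span at least 50% of a region, the shares were 27.6% and 23.5% for H3K27me1 and 38.5% and 39.6% for H3K27me2.

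H3K27me1 regions also overlapped the H3K27me2 regions of the same line and the H3K27me1 regions of *Ezh2* KO. Of the H3K27me1 regions, 64.1% in *Ezh1/2* dKO and 63.3% in *Ezh2* Y726D overlapped an H3K27me2 region of the same line, with 46.7% and 44.7% of bases inside, where H3K27me2 covered 23.0% and 23.4% of these chromosomes. *Ezh2* KO H3K27me1 regions held 49.6% and 44.2% of the H3K27me1 bases of the mutants (19.5% of the genome), and WT H3K27me1 regions 18.3% and 20.8% (15.03%). For H3K27me2 the *Ezh2* KO list held 28.9% and 30.3% (16.6% of the genome) and the WT list 24.1% and 25.5% (13.9%). Across bins of 10 kb, coverage in the 2 lines had a Spearman rho of 0.56 for H3K27me1 (111032 bins) and 0.68 for H3K27me2 (239004 bins), and the 2 marks of one line 0.51 in *Ezh1/2* dKO and 0.49 in *Ezh2* Y726D. Bins share base composition, mappability and, within a line, the cells, so these values are descriptions.

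H3K27me1 covered 11.4% of the assembled bases in *Ezh1/2* dKO and 12.97% in *Ezh2* Y726D, a difference of 1.61 percentage points (*Ezh2* Y726D minus *Ezh1/2* dKO). H3K27me2 covered 25.002% and 24.6%, a difference of -0.43 points, which became 0.13 without chromosome 12 and the 4 segments described next. How many reads went into a list is unknown here, and deeper sequencing can lengthen it. The WT lists covered 15.03% (H3K27me1) and 13.9% (H3K27me2). The lists are not scaled to the added Drosophila chromatin, so coverage is not an amount of a mark. By western blot the study reported that both lines lost every H3K27 methylation state. By ChIP-seq scaled to that chromatin it reported loss of H3K27me2 over poorly expressed genes in both lines.

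Most chromosomes had like coverage in both lines, and chromosome 12 did not. H3K27me2 covered 24.9% to 30.9% of the other autosomes apart from 8 and 11 in *Ezh1/2* dKO and 24.2% to 30.8% in *Ezh2* Y726D. On chromosome 12 it covered 26.8% in *Ezh1/2* dKO and 13.97% in *Ezh2* Y726D, and coverage was lower in *Ezh2* Y726D in 115 of its 118 windows of 1 Mb. ATAC-seq regions covered 24.4% and 14.4% of the same chromosome, and H3K27ac peaks 0.354% and 0.639%. The H3K27ac lists differ in length, with 17618 and 40829 peaks. On the other autosomes H3K27ac covered 0.258% to 0.693% in *Ezh1/2* dKO and 1.05% to 2.07% in *Ezh2* Y726D. Over genes with a mean count of at least 20, the log2 ratio of normalized counts (*Ezh2* Y726D over *Ezh1/2* dKO, pseudocount 1) was taken. Its median was -0.32 over 364 genes of chromosome 12, against 0.02 over all 11640. The part of these other readouts in the H3K27me2 difference was not tested, and chromosome 12 is not listed for H3K27me1 in either line. Chromosomes 8 and 11 had low H3K27me2 coverage in both lines, at 13.7% and 14.3% on chromosome 8 and 11.6% and 12.7% on chromosome 11. H3K27me1 covered 4.44% and 5.21% of chromosome 11 and 0.237% and 0.244% of chromosome X, and H3K27me2 3.83% and 3.47% of chromosome X. WT covered 7.26% of chromosome 11 and 0.416% of chromosome X with H3K27me2, and its list holds no region on chromosome 8.

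**Figure D2:**
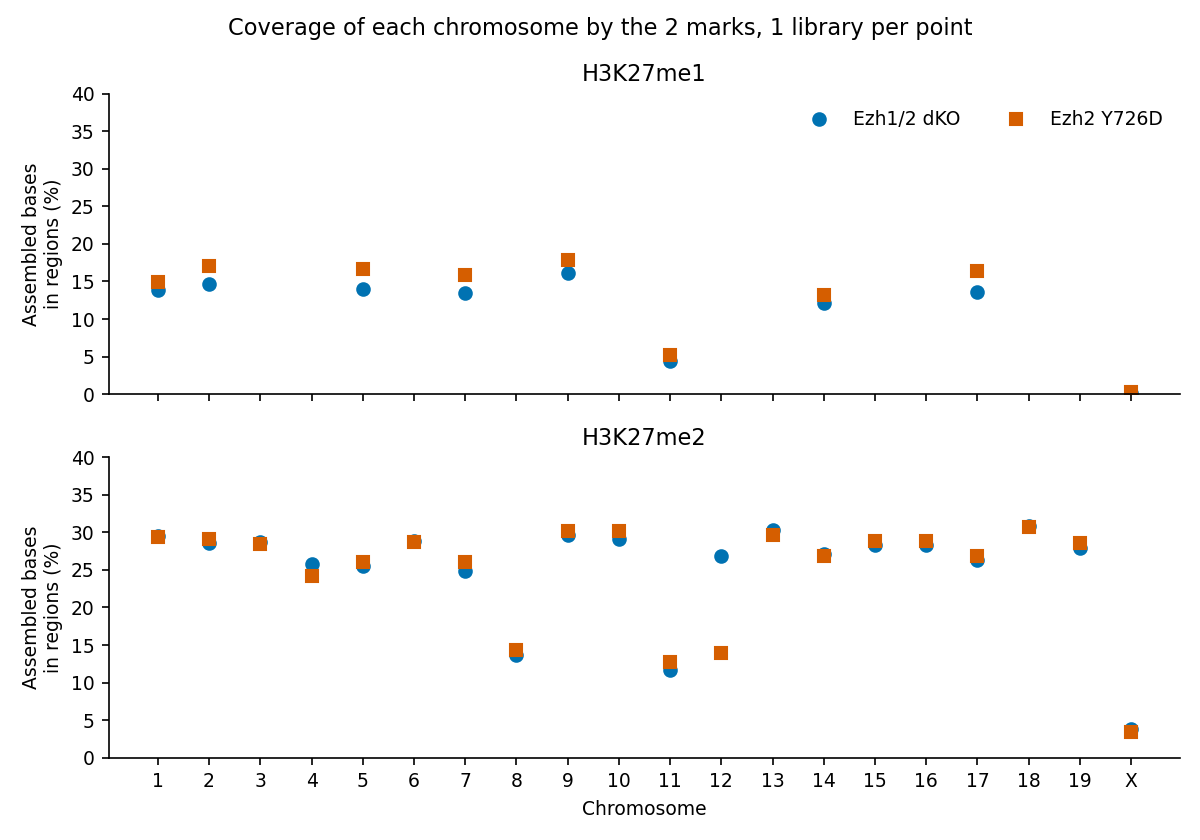
Assembled bases inside regions (%, vertical axis) on each chromosome (horizontal axis) for H3K27me1 (top, chromosomes listed in both lines) and H3K27me2 (bottom). Blue circles are *Ezh1/2* dKO and orange squares *Ezh2* Y726D, 1 library each. The points of the lines lie close together except on chromosome 12, at 26.8% and 13.97%, and both are low on chromosomes 8, 11 and X.

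Another 4 segments stood apart, each a run of 1 Mb windows that differed by at least 15 points between the lines. H3K27me2 had 7 windows that were higher by this margin in *Ezh2* Y726D and 40 that were lower, 36 of the latter on chromosome 12, of 2565 windows in all. H3K27me1 had 2 that were higher and 0 that were lower, of 1281. On chr10:75000001-80000000, H3K27me2 covered 19.1% in *Ezh1/2* dKO and 44.8% in *Ezh2* Y726D, with 35.7% and 40.6% for ATAC-seq, 1.28% and 6.34% for H3K27ac, and a median log2 RNA ratio of 0.28 (82 genes). On chr17:20000001-22000000, H3K27me1 covered 6.06% and 27.3% and H3K27me2 13.6% and 31.2%, with 20.3% and 28.3% for ATAC-seq and a median log2 RNA ratio of 0.56 (13 genes). The direction was opposite on chr6:7000001-10000000, with 45.6% and 24.4% for H3K27me2, 37.3% and 15.8% for ATAC-seq and a log2 RNA ratio of -0.57 (7 genes). It was also opposite on chr4:127000001-128000000, with 45.4% and 28.4%, 32.3% and 19.8%, and -0.31 (3 genes). In each segment the methylation mark, ATAC-seq and RNA differed in one direction. H3K27ac covered 0.230% and 1.02% of the chromosome 17 segment, 1.62% and 2.13% of the chromosome 4 segment and 0.572% and 0.570% of the chromosome 6 segment. Its list was longer in *Ezh2* Y726D, and its coverage of whole chromosomes was higher there too. It covered 0.486% and 1.63% of all of chromosome 10 and 0.693% and 2.07% of chromosome 17. For chromosomes 4 and 6 it was 0.610% and 1.46%, and 0.488% and 1.47%.

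**Figure D3:**
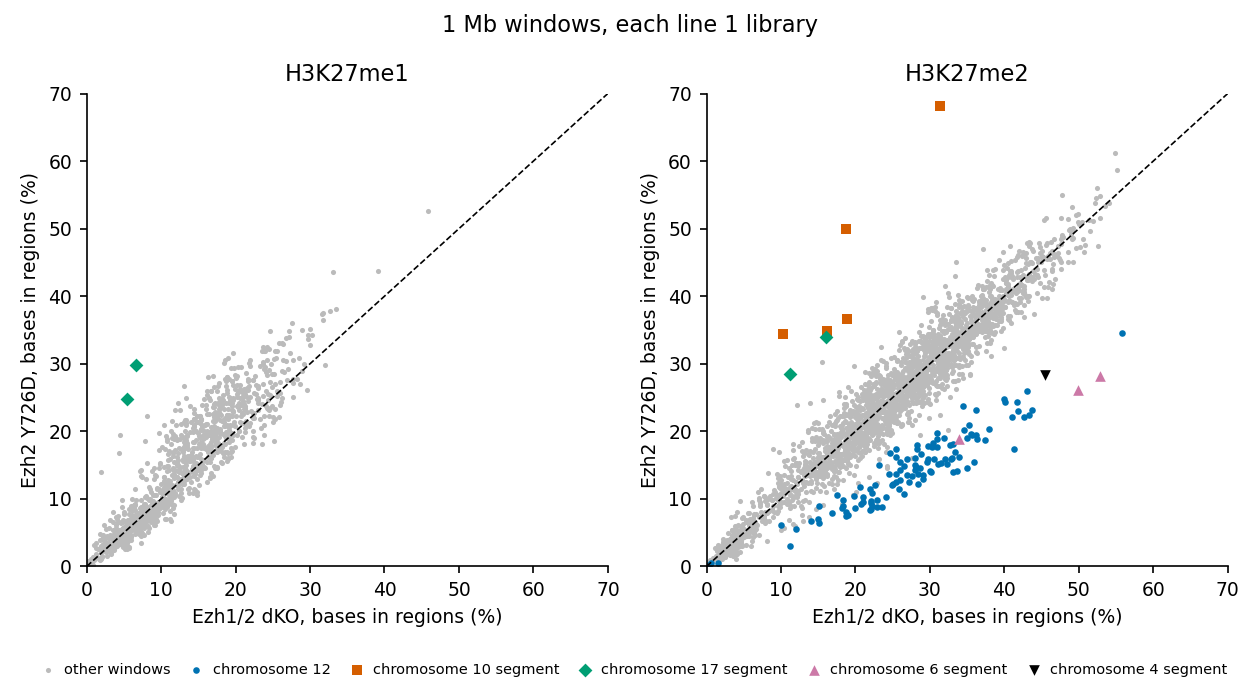
Coverage of windows of 1 Mb (% of bases in regions) in *Ezh1/2* dKO (horizontal axis) and *Ezh2* Y726D (vertical axis) for H3K27me1 (left) and H3K27me2 (right), with 1 library per line. Each point is a window, the dashed line marks equal coverage, blue points are chromosome 12, and the other colours are the segments on chromosomes 10, 17, 6 and 4. The chromosome 12 points lie below the line, and the chromosome 10 and 17 segments above it.

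H3K27me1 coverage was higher in GC-rich bins in both lines, and more so in *Ezh2* Y726D. In 10 kb bins with under 36% GC, H3K27me1 covered 5.41% in *Ezh1/2* dKO and 5.49% in *Ezh2* Y726D, in bins of 50 to 55% GC 20.8% and 30.1%, and in bins with 55% GC or more 18.8% and 32.6%. H3K27me2 was highest in bins of 42 to 44% GC, at 30.8% and 30.4%, and was at 9.20% and 18.9% at 55% GC or more. The lines lay close for H3K27me1 up to bins of 40 to 42% GC, at 11.4% and 11.6%. For H3K27me2 the AT-rich bins were higher in *Ezh1/2* dKO, at 19.2% and 16.8% under 36% GC and 26.4% and 23.97% at 38 to 40% GC, and bins of 46 to 50% GC were higher in *Ezh2* Y726D, at 25.2% and 28.1%. The direction of the H3K27me2 difference thus turned with GC content. By gene feature, H3K27me1 covered 9.36% and 21.6% of the bases within 1 kb of a transcription start site (TSS), 15.8% and 21.0% of other exons, 13.2% and 15.6% of introns and 10.1% and 10.7% between genes. H3K27me2 covered 15.5% and 20.2% near a TSS, 18.9% and 20.1% of other exons, 24.7% and 24.99% of introns and 25.7% and 24.6% between genes. The TSS class thus showed the widest gap between the lines for both marks.

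SUZ12 sites, the PcG targets that PRC2 occupies in WT, were covered by H3K27me1 more often in *Ezh2* Y726D than in *Ezh1/2* dKO. Of the 2742 WT SUZ12 peaks on the H3K27me1 chromosomes, 27.6% (25.97 to 29.3) overlapped an H3K27me1 region in *Ezh1/2* dKO and 59.8% (58.0 to 61.7) in *Ezh2* Y726D, a gap of 32.2 points. For H3K27me2 it was 23.7% (22.6 to 24.9) and 42.4% (41.1 to 43.7) of 5404 peaks, a gap of 18.6 points. By bases the shares were 13.2% and 40.1% for H3K27me1 and 9.44% and 22.2% for H3K27me2. When at least 50% of a SUZ12 peak had to be covered, 11.2% and 37.7% remained for H3K27me1 and 6.72% and 19.2% for H3K27me2. For reference, H3K27me1 overlapped 0.474% of these peaks in WT and 26.8% in *Ezh2* KO, and H3K27me2 6.24% and 96.2%.

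The same direction was seen at promoters without SUZ12. At 1 kb around a TSS with no WT SUZ12 peak, H3K27me1 lay at 19.4% (18.6 to 20.1) of 11019 sites in *Ezh1/2* dKO but at 40.1% (39.2 to 41.0) in *Ezh2* Y726D, and H3K27me2 30.4% and 37.8% of 19676. In the class of 60 to 65% GC, H3K27me1 overlapped 29.9% and 63.1% of SUZ12 peaks (n = 1005) and 18.3% and 57.8% of the other promoters (n = 1406). Under 50% GC it overlapped 15.3% and 36.7% of SUZ12 peaks (n = 98) and 18.7% and 22.3% of the other promoters (n = 4126). The gap between the lines was therefore not particular to SUZ12 sites, and at promoters without SUZ12, unlike at SUZ12 peaks, it was narrow below 50% GC. At SUZ12 peaks that were also listed in *Ezh2* Y726D the shares were 38.1% and 74.8% (n = 1261, median width 1356 bp), and at those not listed 18.7% and 47.1% (n = 1481, 577 bp). The SUZ12 and H3K27me3 samples named for the Y726D mutation alone were taken as this line.

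Around the centre of SUZ12 peaks, H3K27me1 was at 13.1% of sites in *Ezh1/2* dKO and 38.4% in *Ezh2* Y726D in the first 500 bp, compared with 15.3% and 22.5% at 9500 to 10000 bp. H3K27me2 dipped at the centre in *Ezh1/2* dKO, from 22.4% to 8.87%, and was at 21.6% in *Ezh2* Y726D, with 25.8% far from it. At a TSS without SUZ12, H3K27me1 was at 9.47% in *Ezh1/2* dKO, with 9.64% far from it, and at 22.9% in *Ezh2* Y726D, with 14.1%. Open chromatin was alike at SUZ12 peaks, as ATAC-seq regions overlapped 94.8% and 95.1% of the 5404. H3K27ac peaks lay at 9.23% of them in *Ezh1/2* dKO but at 28.3% in *Ezh2* Y726D, with lists of 17618 and 40829 peaks. At the 8073 H3K27ac peaks found in both lines, H3K27me1 overlapped 16.9% and 48.0%, and at 16018 such peaks H3K27me2 44.8% and 49.2%. The part of H3K27ac or of GC content in the H3K27me1 difference was not tested.

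**Figure D4:**
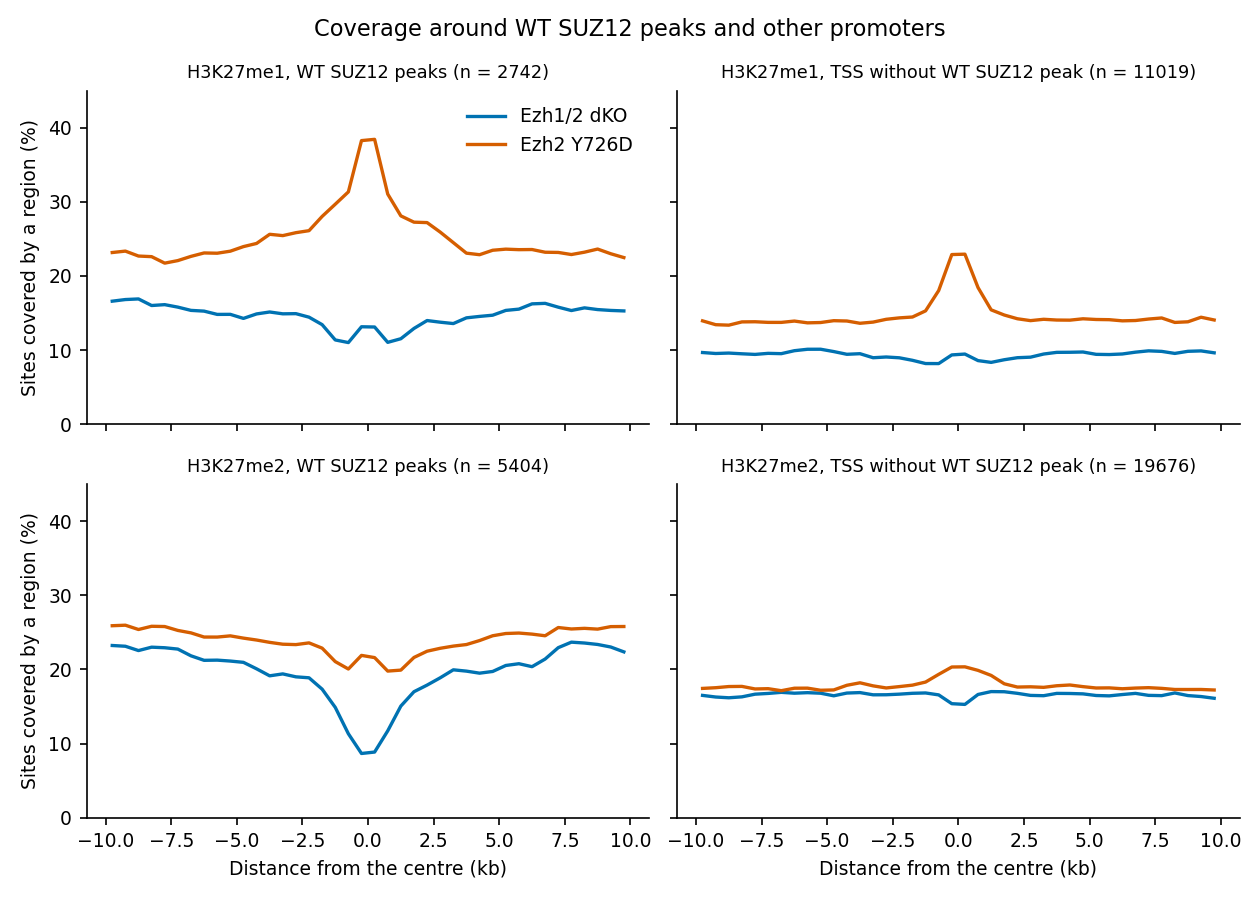
Share of sites covered by a region (%, vertical axis) in steps of 500 bp by distance from the site (kb, horizontal axis), for H3K27me1 (top) and H3K27me2 (bottom), at WT SUZ12 peak centres (left) and at a TSS without a WT SUZ12 peak (right). Blue is *Ezh1/2* dKO and orange *Ezh2* Y726D, 1 library each. At the centre H3K27me1 peaks in *Ezh2* Y726D (38.4% at SUZ12 sites, 22.9% at other promoters) and H3K27me2 dips at SUZ12 sites in *Ezh1/2* dKO (8.87%).

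One such site is shown to make its base composition visible. It lies at *Tox2*, a gene of the TOX family of DNA-binding proteins, within a WT SUZ12 peak (chr2:163028882-163030937, -log10 p 117.3). It comes from the 231 SUZ12 peaks that passed 3 conditions. These were H3K27me1 over at least 50% of their bases in *Ezh2* Y726D, no region of either mark in *Ezh1/2* dKO, and no exon in the 200 central bases. H3K27me1 covered 83.9% and H3K27me2 9.73% of this peak in *Ezh2* Y726D, with a -log10 p of 1.24 and 1.47. The 200 central bases of the plus strand of mm9 are printed with CG dinucleotides in capitals, of which there are 10.
chr2:163029810-163030009, SUZ12 peak at *Tox2*: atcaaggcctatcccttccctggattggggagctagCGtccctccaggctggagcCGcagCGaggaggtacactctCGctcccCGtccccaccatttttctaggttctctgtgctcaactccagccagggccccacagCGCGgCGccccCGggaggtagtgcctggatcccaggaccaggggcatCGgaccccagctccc

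Genes were compared by the share of the body, from TSS to end, inside regions, over protein-coding genes of at least 5 kb. For H3K27me1, 870 of 8938 genes (9.73%) were covered at least 20 points more in *Ezh2* Y726D and 116 (1.3%) at least 20 points more in *Ezh1/2* dKO. For H3K27me2, 901 of 16433 (5.48%) were higher in *Ezh2* Y726D and 462 (2.81%) in *Ezh1/2* dKO. These are rules of size, not tests. At 40 points the counts were 117 and 15, and 131 and 47. Genes past the 20 points were short, with medians of 11035 and 8620 bp for H3K27me1 and 10459 and 10317 bp for H3K27me2, compared with 24181 and 25605 bp over all genes, so that 1 region weighs more in them. The 870 genes had a median body GC of 50.9%, compared with 44.6% in genes past neither margin. A WT SUZ12 peak lay at the TSS of 17.9% (15.5 to 20.6) of them, 12.2% (11.5 to 12.96) of genes past neither margin and 3.45% (1.35 to 8.53) of the 116. For H3K27me2, chromosome 10 held 120 of the 901 (15.8% of its genes), and chromosome 12 held 65 of the 462 (11.6% of its genes).

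Among the PcG genes profiled by the study, the bodies of those measured were covered more in *Ezh2* Y726D. Of the 15 PcG genes profiled by the study, 6 were long enough and on the chromosomes of H3K27me1. They were 6.08 to 22.7 kb long with a body GC of 48.1% to 56.6%. The shares of all genes given beside them are not matched for length or GC. Of these, 5 were at least 20 points higher in *Ezh2* Y726D and 0 in *Ezh1/2* dKO, against 9.73% and 1.3% of all genes, with a median difference of 22.4 points (2.76 over all genes). For H3K27me2 it was 4 of 9, against 5.48%, with a median of 17.8 points (0.05 over all genes). Most genes with a WT SUZ12 peak at the TSS were past neither margin. For H3K27me1, 156 such genes were past it towards *Ezh2* Y726D, 4 towards *Ezh1/2* dKO and 972 past neither. For H3K27me2 these counts were 162, 51 and 2049. *Wnt5a*, which encodes a secreted WNT ligand, went from 7.54% in *Ezh1/2* dKO to 28.1% in *Ezh2* Y726D for H3K27me1 and from 20.2% to 41.1% for H3K27me2. *Fgfr3*, an FGF receptor gene, went from 36.2% to 77.6% and from 19.4% to 39.4%. *Mmp25*, a membrane-bound metalloproteinase gene, went from 4.32% to 27.8% for H3K27me1 and had 16.2% and 16.5% for H3K27me2. *Pax9*, a developmental transcription factor gene on chromosome 12, had 7.50% and 7.67% for H3K27me2. The sixth H3K27me1 member, *Hoxb7*, had 23.7% and 30.8%. These 15 genes were chosen by the study in the same cells and are not independent evidence. At the WT SUZ12 peaks of these loci, H3K27me1 was higher in *Ezh2* Y726D at 8 of 9 loci, with medians of 0 and 52.8% of peak bases. *Cdx2*, a trophoblast and intestine transcription factor gene, was the exception, at 63.6% and 58.7%. For H3K27me2 the peaks did not share this direction: it was higher in *Ezh2* Y726D at 9 of 15 loci and lower at 6, and the median was 15.99% in *Ezh1/2* dKO and 14.01% in *Ezh2* Y726D.

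The other lists had 0 or 1 member past the 20 points, against 9.73% (*Ezh2* Y726D) and 1.3% (*Ezh1/2* dKO) of all genes for H3K27me1 and 5.48% and 2.81% for H3K27me2. Of the PRC2 subunit genes, 0 of 6 for H3K27me1 and 0 of 10 for H3K27me2 were past the 20 points. *Jarid2*, an accessory subunit gene, had 10.3% and 12.3% for H3K27me2. *Aebp2*, another, had 14.7% and 21.3%, and *Mtf2*, a Polycomb-like subunit gene, 10.1% and 3.51% for H3K27me2 and 2.27% and 10.8% for H3K27me1. Of the genes for the H3K27 acetyltransferases and demethylases, 0 of 2 and 0 of 4 were past the margin. *Crebbp*, an acetyltransferase gene, had 12.6% and 13.6% for H3K27me2, and *Kdm6a*, a demethylase gene on chromosome X, 3.27% and 1.15%. Of the pluripotency genes, 0 of 5 for H3K27me1 and 1 of 12 for H3K27me2 was past it, *Prdm14*, a repressor of differentiation, at 23.9% in *Ezh1/2* dKO and 2.84% in *Ezh2* Y726D. *Esrrb*, a nuclear receptor gene on chromosome 12, had 28.2% and 18.2%, *Fbxo15* 12.4% and 10.3%, and *Sall4*, a zinc-finger factor gene, 9.25% and 5.73%. The median difference of the pluripotency genes was 9.16 points for H3K27me1 and -4.80 points for H3K27me2, compared with 2.76 and 0.05 over all genes. Of the highly transcribed housekeeping genes, 0 of 7 and 0 of 8 were past it, with median differences of 7.10 and -1.88 points. *Pgk1*, the longest of them, on chromosome X, had 0% and 0% for H3K27me1 and 6.05% and 0% for H3K27me2. *Ncl*, which encodes nucleolin, had 0% and 14.2% for H3K27me1 and 5.47% and 5.62% for H3K27me2. *Ldha*, lactate dehydrogenase A, had 0% and 13.001%, and 2.59% and 8.44%. Of 20 long genes for neural adhesion and synapse proteins, 0 of 9 and 1 of 20 were past it, with H3K27me2 medians of 27.7% and 24.2%. *Ptprd*, a receptor phosphatase gene, had 26.6% and 24.7%, *Cntnap2*, a neurexin-family gene, 26.8% and 23.8%, and *Dmd*, the dystrophin gene on chromosome X, 3.38% and 3.06%. The gene past the margin, *Nrxn3*, a neurexin gene on chromosome 12, had 44.9% and 21.6%.

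The genes of at least 20 kb with the widest differences in H3K27me1 were, towards *Ezh2* Y726D, *Setd1b* (chr5:123592202-123617444), *Ppp2r1a* (chr17:21082275-21102880) and *Plcd1* (chr9:118980645-119002614). *Setd1b*, an H3K4 methyltransferase gene, had 10.02% and 62.1%, with 150.02 and 138.5 normalized counts in *Ezh1/2* dKO and 349.5 and 284.2 in *Ezh2* Y726D. *Ppp2r1a*, the scaffold subunit gene of phosphatase 2A, lies in the chromosome 17 segment and had 13.3% and 60.6%, with counts of 1474 and 1562, and 1833 and 2091. With 2 RNA-seq libraries per line, whether the RNA of these genes differed between the lines was not tested. *Plcd1*, a phospholipase C gene, had 15.1% and 59.3%, with counts that overlapped (131.9 and 188.2, and 75.8 and 252.8). Towards *Ezh1/2* dKO they were *Bpifb2*, at 56.2% and 8.10% (chr2:153700781-153721006), *Tmem204*, at 38.7% and 8.18% (chr17:25194647-25218126), and *Spata18*, at 44.7% and 16.8% (chr5:74042619-74070723). *Tmem204* had 2.66 to 8.95 counts over the 4 libraries, and the other 2 are not matched in the RNA table. For *Bpifb2* H3K27me2 had the other direction, at 33.2% in *Ezh1/2* dKO and 55.7% in *Ezh2* Y726D.

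For H3K27me2 the 3 genes with the widest differences towards *Ezh2* Y726D all lie in the chromosome 10 segment. *Dnmt3l*, a cofactor gene of de novo DNA methylation (chr10:77504692-77526367), had 5.13% and 56.5%, with 1092 and 856.0 counts in *Ezh1/2* dKO and 1667 and 1703 in *Ezh2* Y726D. *Pdxk*, the pyridoxal kinase gene (chr10:77899489-77927720), had 0.708% and 49.3%, and *Palm*, the paralemmin gene (chr10:79256317-79283641), 12.99% and 60.5%. RNA counts were 645.4 and 845.3 against 699.9 and 953.2 for *Pdxk*, and 53.6 and 44.4 against 74.0 and 42.5 for *Palm*, so the lines overlapped for both. Towards *Ezh1/2* dKO they were *Myh4*, a muscle myosin heavy chain gene (chr11:67051314-67073948), at 47.9% and 10.8%, 4931440P22Rik (chr3:65311179-65333301) at 46.6% and 11.5%, and *Lrrc38* (chr4:142939660-142960935) at 40.2% and 5.68%. Their RNA counts were at most 13.4 in any of the 4 libraries.

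Coverage was compared with transcription by ranking genes on the mean normalized count per kb of exon over the 4 RNA-seq libraries of the 2 lines. For H3K27me1, 7253 of the 8938 genes had a count, and for H3K27me2 13485 of 16433. From the lowest to the highest decile, H3K27me1 coverage of gene bodies went from 16.2% to 8.51% in *Ezh1/2* dKO and from 16.7% to 14.4% in *Ezh2* Y726D. In WT it went from 5.29% to 64.2%, the known pattern of this mark over transcribed genes, and in *Ezh2* KO from 34.0% to 0.683%. H3K27me2 went from 33.1% to 12.4% in *Ezh1/2* dKO and from 32.5% to 12.5% in *Ezh2* Y726D. Coverage of the top 25% of genes minus that of genes without a count was -5.42 points for H3K27me1 in *Ezh1/2* dKO and -0.93 points in *Ezh2* Y726D (1814 and 51 genes). For H3K27me2 the differences were -16.3 and -16.2 (3372 and 91 genes). The H3K27me2 profiles of the lines thus lay within 1.27 points of each other in every decile, while H3K27me1 was higher in *Ezh2* Y726D by 5.86 points in the highest decile.

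**Figure D5:**
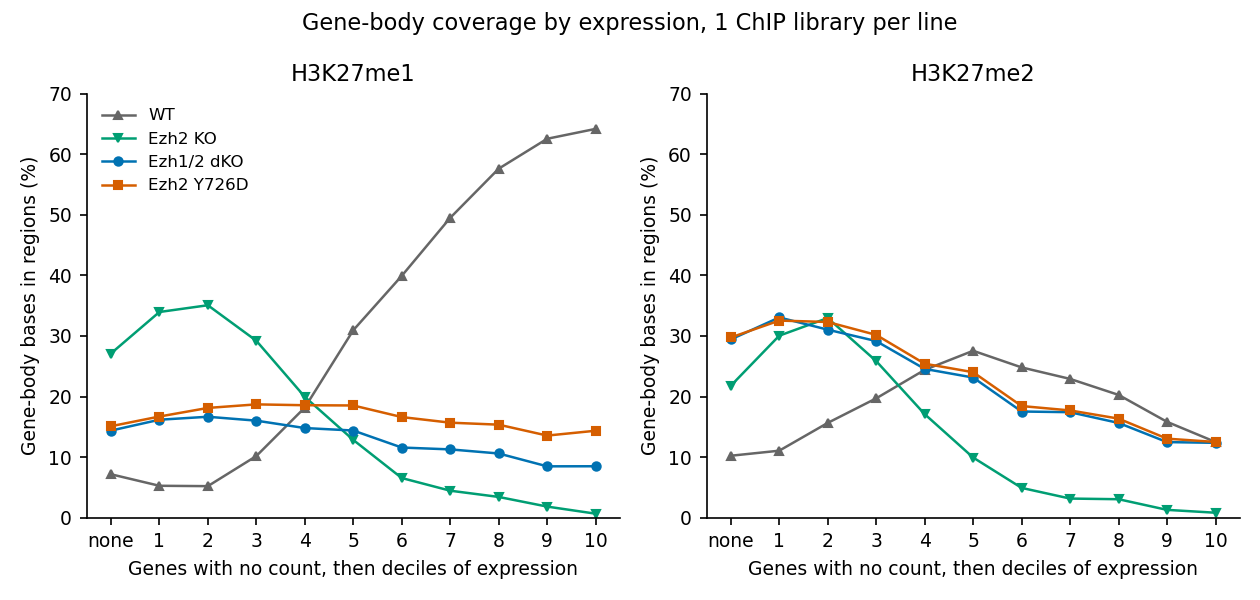
Share of gene-body bases in regions (%, vertical axis) for genes with no count and for deciles of genes by normalized count per kb in *Ezh1/2* dKO and *Ezh2* Y726D (horizontal axis), for H3K27me1 (left) and H3K27me2 (right). Grey triangles are WT, green triangles *Ezh2* KO, blue circles *Ezh1/2* dKO and orange squares *Ezh2* Y726D, 1 ChIP-seq library each. WT H3K27me1 climbs from 5.29% to 64.2%, and both mutant lines stay between 8.496% and 18.7%.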

How the data were processed

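ChIP-seq of H3K27me1 and H3K27me2 in *Ezh1/2* dKO and *Ezh2* Y726D ESCs was analysed, with 1 library per line and mark. The authors aligned reads to mm9 with Bowtie 1.2.2, kept unique alignments, removed duplicates with Picard and called broad regions with MACS2 2.1.1. Per region, the deposited lists hold a mean fold enrichment, which is a ratio, and a -log10 p, both relative to a background whose source, the library itself or an input, is not given in the sources used here. The methods state a p threshold of 0.1 and the Reporting Summary 1e-10, and the values follow the former. Scaling to the 5% Drosophila chromatin does not enter the lists. Reads per library are unknown, so the part of sequencing depth in the differences could not be estimated. The deposited RNA-seq values are a signal, read counts per gene (TopHat 2.1.1, HTSeq 0.8.0) that the authors normalized with DESeq2 1.20. Lists of the authors' own comparisons (fold changes and p-values) were not used.

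Regions were intersected (at least 1 bp) and coverage taken per assembled base with Python 3.11.15, numpy 2.4.6, pandas 2.3.3 and scipy 1.17.1, on mm9 with GENCODE vM1 genes. Figures were drawn with matplotlib 3.10.9. Shares have Wilson 95% intervals. On simulated lists the 1499 of 2499 regions made to overlap and the 50 genes made to differ were found. Lines were grouped by their labels, no test was made, and SUZ12, H3K27me3, H3K27ac and ATAC-seq lists were used as deposited. Named genes are *Ezh1*, *Ezh2*, the longest members of the lists, the 3 genes of at least 20 kb with the widest difference per mark and direction, and the genes at the 5 strongest regions per list, of which some regions and their sequences are not reported here. *Hoxb7*, *Cdx2*, *Prdm14*, *Nrxn3*, *Mid1* and *Tox2* were added once their values had been seen. The members and lists were chosen with earlier results of these data known. Alternatives on strength, list length, blocks, overlap, margins and chromosomes are given in the closing section.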

Additional observations from a re-analysis of the deposited data

How the results depend on the processing

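The values are given as *Ezh1/2* dKO, then *Ezh2* Y726D, and the differences as *Ezh2* Y726D minus *Ezh1/2* dKO. With the upper 50% of each list by -log10 p, the overlap was 31.6% and 28.9% for H3K27me1 and 45.4% and 45.9% for H3K27me2, the covered-base difference 0.94 and -0.30 points, the share of SUZ12 peaks 14.9% and 40.9%, and 9.62% and 18.7%, and the expression difference -3.36 and -0.99, and -11.5 and -11.4 points. With the longer list of each mark trimmed to its strongest regions to match the other in length, the overlap was 46.1% and 45.7% for H3K27me1 and 63.3% of *Ezh2* Y726D regions for H3K27me2, the covered-base difference 0.90 and -0.37, the *Ezh2* Y726D share of SUZ12 peaks 57.8% for H3K27me1, and the expression difference -1.11 for H3K27me1 in *Ezh2* Y726D and -16.4 for H3K27me2 in *Ezh1/2* dKO. The narrow blocks inside the regions numbered only 35 and 40, and 108 and 103, and left 0 genes past the margin for either mark and direction. For them the overlap was 65.7% and 55%, and 63.9% and 67.0%, the covered-base difference 0.00063 and 7.5e-05, the share of SUZ12 peaks 0.292% and 0.401%, and 0.0185% and 0.130%, and the expression difference 0.0033 and 0.028, and -0.0052 and -0.0022, so that the covered-base difference of H3K27me2 and the expression differences of H3K27me1 turned. Overlaps of at least 50% of a region gave 27.6% and 23.5%, and 38.5% and 39.6%, and overlaps of at least 50% of a SUZ12 peak 11.2% and 37.7%, and 6.72% and 19.2%. A margin of 40 points left 117 and 131 genes higher in *Ezh2* Y726D and 15 and 47 in *Ezh1/2* dKO, for H3K27me1 and H3K27me2. The top 10% of genes in place of the top 25% gave expression differences of -5.90 and -0.74, and -17.0 and -17.2.

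On the 8 autosomes listed in all 4 lines for both marks the covered-base difference was 1.85 for H3K27me1 and turned to 0.45 for H3K27me2. Leaving out chromosome 12 and the segments, an alternative chosen after seeing the data, gave 1.58 and 0.13, an overlap of 63.6% for H3K27me2 regions of *Ezh1/2* dKO, and expression differences of -0.99 for H3K27me1 in *Ezh2* Y726D and -16.6 and -16.4 for H3K27me2. The sign of the H3K27me2 covered-base difference thus depended on the chromosomes included. The share of SUZ12 peaks was higher in *Ezh2* Y726D than in *Ezh1/2* dKO under each alternative run for it, by 0.109 to 32.2 points for H3K27me1 and 0.111 to 19.3 points for H3K27me2.

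No paired analysis was possible because each line and mark had 1 library and no test was made. Leaving out a replicate was not possible for the same reason. The reads per library are unknown here, weak regions make up nearly the whole of each list, and clone, library and genotype cannot be told apart.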

Other observations

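The H3K27me3 peaks listed for the Y726D mutant lay where WT carries H3K27me1. Of the 1886 peaks on the H3K27me1 chromosomes, 97.3% (Wilson 95% interval 96.5 to 97.9) overlapped a WT H3K27me1 region, while 21.9% overlapped an H3K27me1 region in *Ezh2* Y726D and 20.3% in *Ezh1/2* dKO. Those lists covered 15.03% (WT), 12.97% (*Ezh2* Y726D) and 11.4% (*Ezh1/2* dKO) of the assembled bases. Of all 3850 peaks on the H3K27me2 chromosomes, 24.8% overlapped an H3K27me2 region in *Ezh2* Y726D and 28.8% in *Ezh1/2* dKO, compared with 2.81% in *Ezh2* KO. The H3K27me2 lists covered 24.6%, 25.002% and 16.6% of bases in the same order. WT H3K27me3 peaks had the opposite pattern, with 0.319% of 8766 peaks in a WT H3K27me1 region, 36.7% in an *Ezh1/2* dKO one and 56.6% in an *Ezh2* Y726D one.

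The strong regions with a -log10 p of at least 5 that held neither a 5-base repeat run nor a part of *Ezh1* numbered 6 of 30 for H3K27me1 in *Ezh1/2* dKO, 6 of 14 in *Ezh2* Y726D, and 24 of 68 and 16 of 62 for H3K27me2. Repeat runs of 100 bases or more were in an H3K27me2 region in 12.5% (11.04 to 14.1) of 1819 cases in *Ezh1/2* dKO and 16.3% (14.6 to 18.0) in *Ezh2* Y726D, compared with 20.5% and 20.4% of runs of 30 to 59 bases.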
